A study of Mus musculus with 10 samples.

Results

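Binding of the glucocorticoid receptor (GR) and of RelA was examined around 4 genes known as classic targets of glucocorticoids, Fkbp5, Per1, Tsc22d3 and Klf9, in primary macrophages. The loci were taken as fixed windows on the mouse build mm9: chr17:28500000-28700000 for Fkbp5, chr11:68880000-68950000 for Per1, chrX:137020000-137200000 for Tsc22d3 and chr19:23130000-23300000 for Klf9, 620 kb in all. Every region of a deposited list that shared at least 1 bp with a window was a member, which gave 50 regions of 115077 in the 10 lists. Of these, 24 were GR regions of cells given LPS and Dex, 17 were GR regions of cells given Dex, and 9 were RelA regions at 3 h of LPS. The 6 other RelA lists and the input list had no region in any window.

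Chromatin immunoprecipitation with sequencing was done on bone marrow derived macrophages of the mouse strain C57BL/6J, with 1 library per condition. Lipopolysaccharide (LPS), from the outer membrane of bacteria, switches on NF-κB, and dexamethasone (Dex) is a synthetic glucocorticoid that activates GR. GR was precipitated after LPS and Dex and after Dex, with double cross-linking (disuccinimidyl glutarate, then formaldehyde) and with no times in the labels. RelA, a subunit of NF-κB, was precipitated after formaldehyde alone, in cells given Dex 3 h before 0, 3 or 8 h of LPS, in cells given Dex late with 8 h of LPS, and in cells given 0, 3 or 8 h of LPS without Dex. Input DNA came from untreated cells. The labels do not say how many mice the cells came from. With 1 library per condition no test between conditions was possible, and the sources used here give no read depth.

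GR is a nuclear receptor that moves to the nucleus when it binds a glucocorticoid and attaches to DNA at glucocorticoid response elements, each a pair of short hexamers in opposite orientation, or through other factors. Fkbp5 encodes a co-chaperone that lowers the affinity of GR for its ligand and so forms a feedback loop. Per1 encodes a repressor of the circadian clock. Tsc22d3 encodes GILZ, a leucine zipper protein that restrains NF-κB and AP-1, and Klf9 encodes a zinc finger transcription factor of the Krüppel-like family. Induction of these genes is a common readout of GR activity in many tissues, macrophages among them.

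The sequences just before the annotated starts of these genes are shown because they can be read for the GR motif directly, whereas the genome sequence of the regions on mm9 was not at hand. They are the 250 bases before each start, from RefSeq on build GRCm38.p6, and their coordinates do not compare with those of the regions. All 4 genes matched, with 7 annotated starts. Capitals mark the hexamer of the GR element (AGAACA, or TGTTCT on the other strand) or an E-box (CACGTG), the element of the clock activators.
Tsc22d3, chrX:140600523-140600772, minus strand: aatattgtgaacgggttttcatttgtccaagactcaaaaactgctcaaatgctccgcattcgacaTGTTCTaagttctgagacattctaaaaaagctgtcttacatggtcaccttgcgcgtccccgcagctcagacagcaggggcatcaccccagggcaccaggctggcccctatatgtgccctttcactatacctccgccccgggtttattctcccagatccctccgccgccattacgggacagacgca
Fkbp5, chr17:28486150-28486399, minus strand: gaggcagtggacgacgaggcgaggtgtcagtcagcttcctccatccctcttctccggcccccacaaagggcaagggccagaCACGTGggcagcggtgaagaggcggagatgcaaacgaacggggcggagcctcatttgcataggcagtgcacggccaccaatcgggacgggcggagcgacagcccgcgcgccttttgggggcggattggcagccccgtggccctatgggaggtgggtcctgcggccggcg
Per1, chr11:69098699-69098948, plus strand: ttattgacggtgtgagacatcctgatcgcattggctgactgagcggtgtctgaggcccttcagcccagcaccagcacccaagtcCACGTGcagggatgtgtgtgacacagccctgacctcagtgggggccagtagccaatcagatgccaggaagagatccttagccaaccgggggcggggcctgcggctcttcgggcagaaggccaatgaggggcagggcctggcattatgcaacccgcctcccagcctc
Klf9, chr19:23140976-23141225, plus strand: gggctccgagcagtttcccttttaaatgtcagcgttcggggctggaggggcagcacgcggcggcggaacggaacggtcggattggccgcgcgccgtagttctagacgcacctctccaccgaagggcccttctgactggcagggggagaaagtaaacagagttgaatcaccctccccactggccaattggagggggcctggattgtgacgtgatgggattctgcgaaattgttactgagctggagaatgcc

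A full glucocorticoid response element, AGAACA and TGTTCT with 3 bases between them, was in none of the 7 promoter windows, and in 0.00913% of all 32851 promoters of the same length. The single hexamer was in 1 of the 7, that of Tsc22d3 shown above, where it began 185 bases before the start. The share over all promoters was 16.1%. The NF-κB consensus was in none of the 7, against 5.00% of all promoters. An E-box stood 166 bases before the Per1 start shown and 169 bases before the Fkbp5 start, and 6.02% of all promoters held one. Each motif was searched on both strands. The full element contains the hexamer, and no match says only that these letters are not in this stretch. GC content was 68.0% for Fkbp5, 62.0% for this Per1 start, 59.6% for Klf9 and 52.4% for this Tsc22d3 start, against a median of 52.4% over all promoters. The other Per1 start and the other Tsc22d3 starts held none of these motifs.

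Regions are given below by the authors' highest tag density, the peak height of a region in the deposited list. Its scaling between libraries and any subtraction of input are unstated. A region is therefore placed first by its rank within its own list, where rank 1 is the highest. Ranks of lists of different lengths do not measure a change between them. Gene models on mm9 were not at hand, so no region is called exonic, intronic or promoter, and none is assigned to a gene by distance. In the RefSeq order of protein-coding genes Fkbp5 lies between Tulp1 and Armc12, Per1 between Vamp2 and Hes7, Tsc22d3 between Prps1 and Mid2, and Klf9 between Trpm3 and Smc5, and windows of this size can include neighbours.

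GR occupied all 4 windows in both libraries, and the windows held some of its strongest regions. With LPS and Dex, 21 of the 24 window regions had a tag density of at least 10 (87.5%, Wilson 95% interval 69.0 to 95.7), against 32.2% of that whole list. With Dex, all 17 did (100%, interval 81.6 to 100), against 7.28% of that list. In the top 1% of the list by tag density were 5 of the 24 regions with LPS and Dex, against a background of 0.999%, and 6 of the 17 with Dex, against 0.998%. The median tag density was 37.8 in the windows and 4.01 in the whole list with LPS and Dex, and 22.1 and 2.99 with Dex. These intervals cover counting error only, and regions of 1 window are neighbours, not independent samples.

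No window region of either GR list met an input region, against 0.544% of the whole list with LPS and Dex and 0.582% of that with Dex. The input region nearest to any window lay 541 kb beyond the end of the Fkbp5 window. Of the 17 regions with Dex, 100% were also called with LPS and Dex (interval 81.6 to 100), against 35.2% of the whole Dex list. Among Dex regions with a tag density of at least 10 the background was 88.8%, which lies inside the interval of the window share. The reason for the higher background was not tested. Of the 24 regions with LPS and Dex, 17 were also called with Dex (70.8%, interval 50.8 to 85.1), against 37.7% of the whole list. At a tag density of at least 10 it was 17 of 21 (81.0%, interval 60.0 to 92.3), against 22.9%. That cut kept 32.2% of the list with LPS and Dex, while the median window region stood at 37.8. The 22.9% is therefore not matched to the windows on tag density, and a closer match was not tested.

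**Figure D1:**
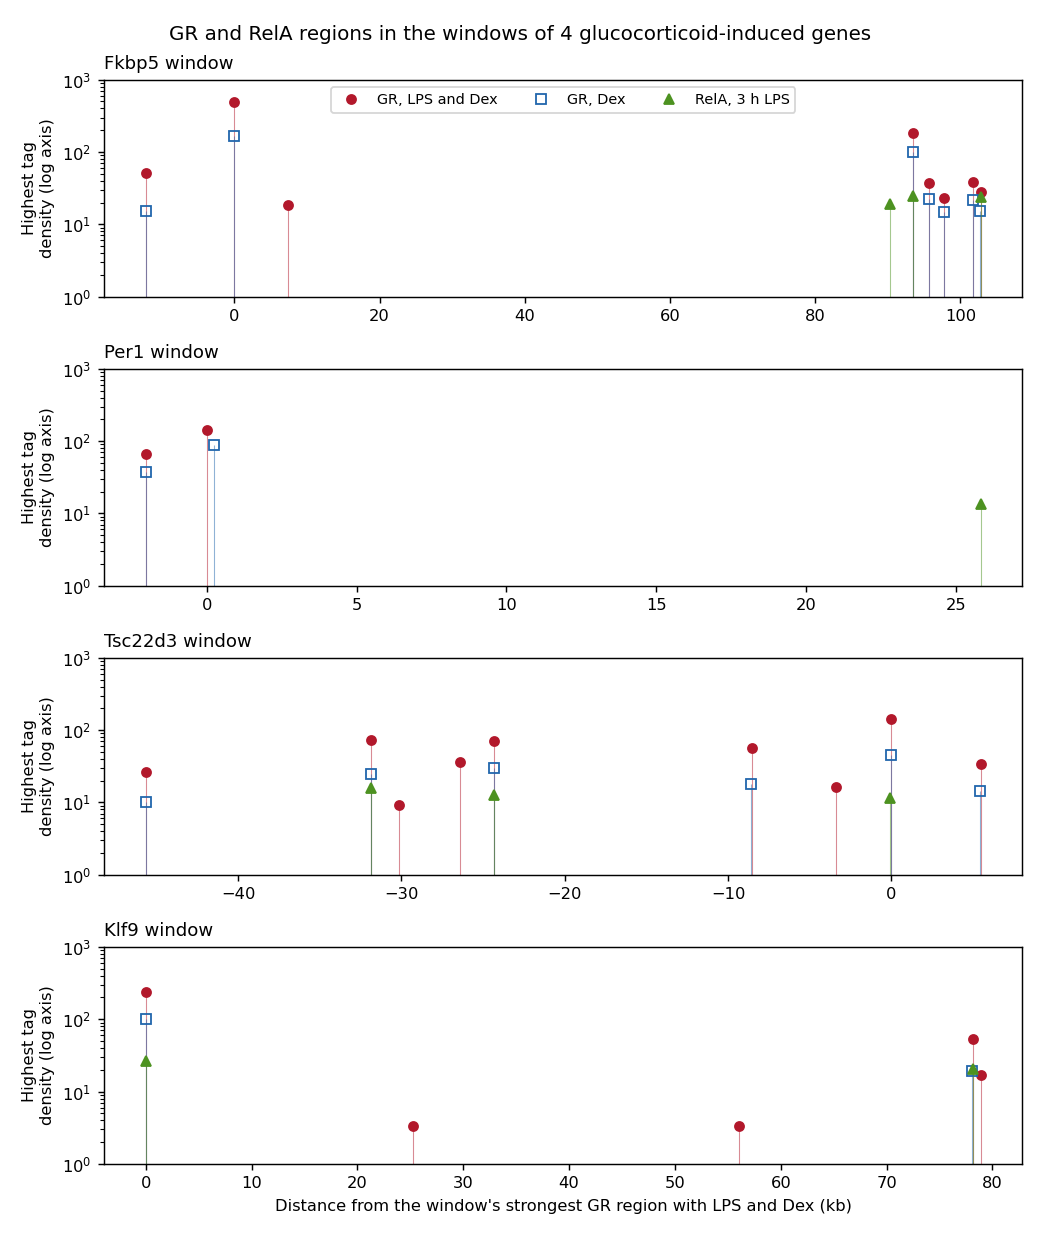
Highest tag density of every region in the 4 windows (vertical log axis, authors' units) against its distance in kb from the window's strongest GR region with LPS and Dex. Filled circles are GR with LPS and Dex, open squares GR with Dex and triangles RelA at 3 h of LPS; each Dex square has a circle above it, and the strongest Fkbp5 region stands at 487 with LPS and Dex and 165 with Dex.

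Fkbp5 held the strongest GR region of the 4 windows. That region, chr17:28556820-28557865 with LPS and Dex and chr17:28556960-28557753 with Dex, had a tag density of 487 with LPS and Dex and 165 with Dex. It ranked 2 of 51639 with LPS and Dex and 12 of 55196 with Dex. The order of regions within the window was led by the same 2 positions in both libraries. The second, chr17:28650369-28651358 with LPS and Dex, reached 182 (rank 69), and its partner with Dex, chr17:28650426-28651244, reached 99.7 (rank 47). Both are within the top 1% of their lists.

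The GR regions of Fkbp5 fell into separate groups along the chromosome. Around the strongest region lay one at chr17:28544462-28545746, at -12.2 kb from it, with 51.1 with LPS and Dex and 15.4 with Dex. Another, at chr17:28564511-28564985, 7.41 kb after it, had 18.7 and was called only with LPS and Dex. The other group held 5 regions between 93.5 and 102.8 kb after the strongest one, called in both libraries. Apart from the leading region of that group, their tag densities were 37.4, 23.0, 38.2 and 27.6 with LPS and Dex and 22.1, 14.8, 21.4 and 15.4 with Dex, in order along the chromosome. Regions with a density of at least 10 numbered 8 with LPS and Dex and 7 with Dex. Of the 13217 tiles of 200 kb that cover the chromosomes, 2.73% held as many with LPS and Dex, and 0.257% with Dex. The cut of 10 kept 32.2% of the list with LPS and Dex and 7.28% of the Dex list. Tile shares at this cut, here and for the other windows, therefore do not compare between the libraries.

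Per1, the smallest window at 70 kb, held 2 GR regions in each library, both of them strong. The stronger was chr11:68912021-68913302 with 141 (rank 177) with LPS and Dex, and chr11:68912566-68913218 with 88.9 (rank 65) with Dex. Its weaker neighbour, about 2 kb before it, had 65.2 (rank 1079) with LPS and Dex, at chr11:68910221-68911050, and 37.4 (rank 451) with Dex, at chr11:68910268-68910972. The stronger region was 1281 bp wide with LPS and Dex and 652 bp with Dex, and its centres lay 230.5 bp apart, the largest offset of the 17 pairs. The median offset was 24.5 bp. At least 2 regions of a density of 10 or more were in 10.6% of 70 kb tiles with LPS and Dex and in 1.56% with Dex.

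Tsc22d3 had the most GR regions with LPS and Dex, 9, of which 6 were also called with Dex. Its strongest was chrX:137072006-137072803, with 144 (rank 166) with LPS and Dex, and chrX:137072042-137072718, with 44.8 (rank 314) with Dex. Next came a pair at -31.8 and -24.3 kb from it. At chrX:137040199-137040922 the tag density was 72.9 with LPS and Dex, and 25.1 with Dex. At chrX:137047736-137048408 it was 71.5 with LPS and Dex, and 29.9 with Dex. Both of these ranked in the top 2% of each list, whose percentages were 1.68 and 1.74 with LPS and Dex and 1.68 and 1.24 with Dex.

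The other shared regions of Tsc22d3 had 56.1, 34.3 and 26.2 with LPS and Dex and 17.9, 14.2 and 10.1 with Dex. The last, at chrX:137026411-137027047, was the weakest of the 17 with Dex. It ranked in the top 7.13% of that list by tag density, where the list median was 2.99. By the authors' score it ranked 29216 of 55196. Regions called only with LPS and Dex had 36.5, 16.2 and 9.35. All 9 lay between -45.7 and 5.47 kb from the strongest one, in the low-coordinate part of the window. Of the 14684 tiles of 180 kb, 2.09% held at least 8 regions of a density of 10 or more with LPS and Dex, and 0.320% at least 6 with Dex. These tiles come from all chromosomes. Chromosome X held 4002 regions of any density with LPS and Dex and 5179 with Dex, and its tiles were not counted apart.

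Klf9 had a strong region at the edge of its window and a weaker group 78 kb further on. The first, chr19:23131108-23131792 with LPS and Dex and chr19:23131137-23131733 with Dex, had 241 (rank 33) with LPS and Dex and 99.8 (rank 46) with Dex. The second, chr19:23209275-23209972 with LPS and Dex, had 52.5 (rank 1686), and its partner with Dex, chr19:23209308-23209821, had 19.2 (rank 1531). A neighbour at chr19:23210131-23210546 had 16.8 and was called only with LPS and Dex. So were 2 regions between the groups with the same low tag density of 3.34, the weakest members of all. Of tiles of 170 kb, 15.7% held at least 3 regions of a density of 10 or more with LPS and Dex, and 4.76% at least 2 with Dex.

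Counted at any tag density, the windows were less unusual. For Fkbp5, Per1, Tsc22d3 and Klf9, tiles with at least as many regions made up 13.6%, 33.7%, 7.38% and 28.1% with LPS and Dex. With Dex they made up 22.8%, 32.7%, 24.8% and 61.3%.

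The placing of the windows decides a few members. The strongest Klf9 region lies 1.11 kb inside its window, and just outside it, 3.36 kb from the edge, was a region with LPS and Dex with a tag density of 16.4. The nearest RelA region outside stood at the same place, 3.20 kb from the edge, with 30.6. At the other Klf9 edge the next region with LPS and Dex lay 20.9 kb outside, with 23.6. The nearest GR regions outside the other windows lay 25.5 kb or further away, in either list.

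**Figure D2:**
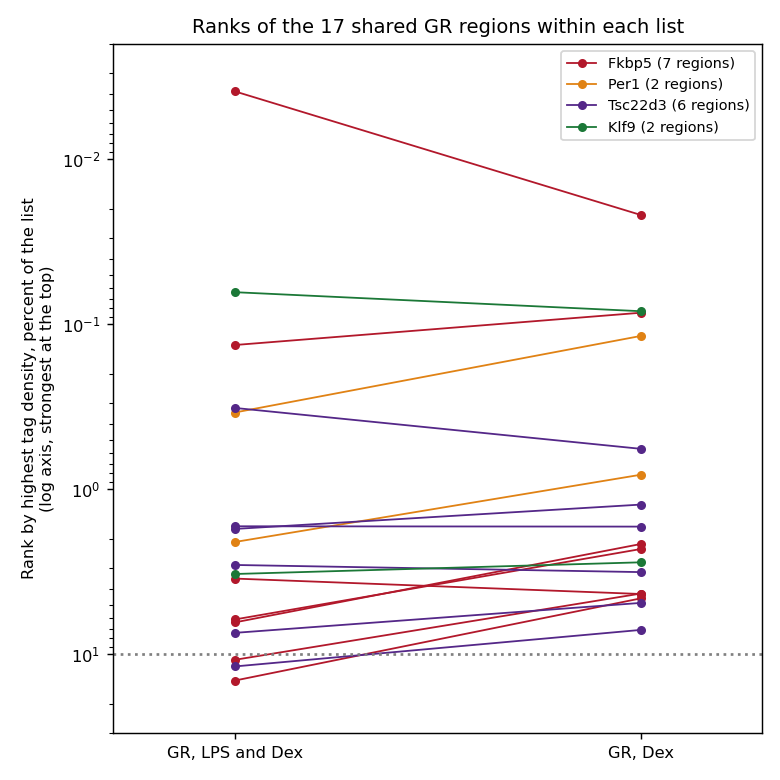
Rank of each of the 17 shared GR regions within its own list, as the percent of the list at or above it (log axis, strongest at the top), with LPS and Dex on the left and Dex on the right. Lines join the same region, the dotted line marks 10%, and all points on the right lie above it, while 3 on the left lie below it.

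Ordered by their strongest region, the loci stood as Fkbp5, Klf9, Tsc22d3 and Per1 with LPS and Dex, at ranks 2, 33, 166 and 177. With Dex they stood as Fkbp5, Klf9, Per1 and Tsc22d3, at ranks 12, 46, 65 and 314. The neighbours Tsc22d3 and Per1, at 144 and 141 with LPS and Dex, are close, and no replicate shows whether they differ. Ranks by the authors' score were lower: with LPS and Dex 9, 97, 172 and 332 for Fkbp5, Klf9, Tsc22d3 and Per1, and with Dex 40, 129, 349 and 162. Of the 17 regions with Dex, 11 lay in the upper 50% of the list by score, although all 17 were in its top 10% by tag density, where the whole list has 10.2%.

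To set the libraries side by side on lists of equal length, regions were ranked among the 3398 pairs called in both libraries with a tag density of at least 10 in each. In deposited units LPS and Dex gave the higher tag density at 17 of the 17 window pairs, against 82.0% of all pairs, and the unknown scaling bears on both numbers. By rank, 9 of the 17 stood higher with LPS and Dex, against 53.4% of all pairs. A linear scaling leaves the order within these pairs as it is, but the cut of 10 that chose the pairs depends on it. The median log2 ratio, LPS and Dex over Dex, was 1.27 in the windows and 1.09 over all pairs. As a whole the window pairs were thus near the background.

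The loci differed in this measure. At Tsc22d3 the log2 ratios ran from 1.26 to 1.68, above the median pair at 6 of 6 regions, and 5 of the 6 ranked higher with LPS and Dex. Its strongest region ranked 162 of the pairs with LPS and Dex and 309 with Dex. At Klf9 the ratios were 1.27 and 1.45, and 2 of 2 regions ranked higher with LPS and Dex. Per1 stood on the other side: its ratios were 0.80 and 0.67, and 0 of 2 regions ranked higher with LPS and Dex. The stronger Per1 region ranked 173 of the pairs with LPS and Dex and 65 with Dex. Pairs that meet an input region were kept in these ranks. With such regions left out of the whole lists, the strongest Tsc22d3 region went from rank 314 to 257 with Dex. With LPS and Dex it went from 166 to 164. The stronger Per1 region went from 65 to 52 with Dex and from 177 to 175 with LPS and Dex.

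Fkbp5 was split along the chromosome. The strongest region and the one before it had log2 ratios of 1.56 and 1.73 and ranked higher with LPS and Dex. The 5 regions of the distant group had ratios between 0.63 and 0.87, and all 5 ranked lower with LPS and Dex than with Dex. The leading region of that group ranked 68 of the pairs with LPS and Dex and 47 with Dex. These patterns by locus were noticed in the values and have no replicate. Over all pairs, the window pairs included, the ratios ran from -2.03 to 4.64.

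**Figure D3:**
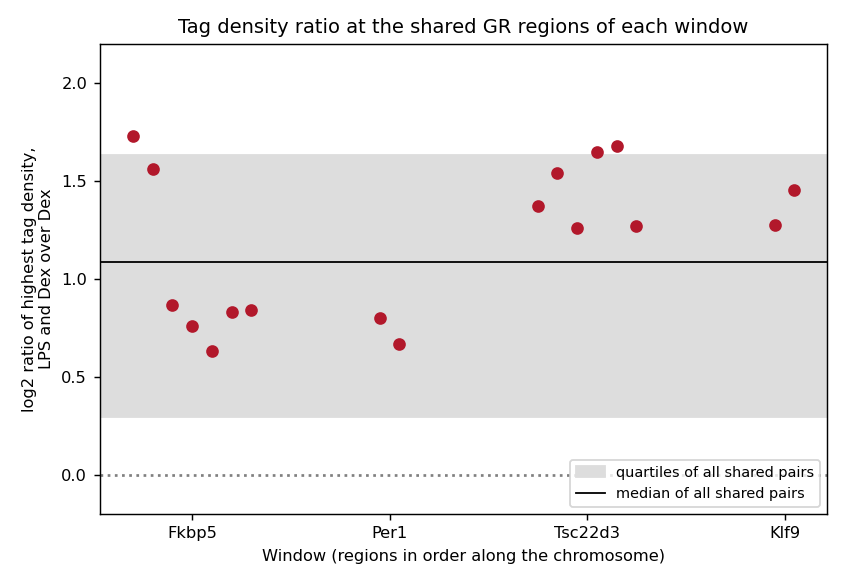
log2 ratio of the highest tag density, LPS and Dex over Dex, at each shared GR region (points, in order along the chromosome within each window). The line is the median over all 3398 shared pairs (1.09) and the band their quartiles (0.29 to 1.63); Tsc22d3 and Klf9 points lie above the median, Per1 points below it, and Fkbp5 points on both sides.

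RelA was called in all 4 windows at 3 h of LPS and in none of them in any other RelA library. The 9 regions at 3 h were 3 at Fkbp5, 1 at Per1, 3 at Tsc22d3 and 2 at Klf9. Their tag densities ran from 11.4 to 26.2 with a median of 19.03, against 18.5 over the whole 3 h list, so they were ordinary regions of that list by height. The highest was at Klf9, chr19:23131130-23131746, with 26.2 (rank 1168 of 5017). The lowest was at Tsc22d3, chrX:137072159-137072527, with 11.4 (rank 4563).

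RelA met GR at 7 of the 9 regions (77.8%, interval 45.3 to 93.7), and each of the 7 was a GR region in both GR lists. Over the whole 3 h list 61.9% met GR with LPS and Dex, inside that interval, and 17.7% met GR with Dex, below it. Here and below, the intervals cover counting error only and are not tests, because regions of a window are neighbours, not independent samples. Neither of these backgrounds is matched to the windows on GR tag density. RelA came from cells without Dex, so the proteins were not measured in the same cells. At the 7 regions the centres of RelA and GR lay between 3.5 and 61.5 bp apart with LPS and Dex, and between 3.0 and 79.0 bp with Dex. Seen from GR, 7 of the 24 regions with LPS and Dex met RelA at 3 h (29.2%, interval 14.9 to 49.2), against 6.05% of the whole list. Of the 17 with Dex 7 did (41.2%, interval 21.6 to 64.0), against 1.61%. Among GR regions with a tag density of at least 10 the backgrounds were higher, 18.5% and 20.5%, and window shares were then 33.3% (interval 17.2 to 54.6) and 41.2%. No window GR region met RelA at 8 h, against 3.13% of the list with LPS and Dex and 0.636% of that with Dex. Among regions with a tag density of at least 10 those backgrounds were 9.62% and 8.24%. The windows held 0 of 21 (interval 0 to 15.5%) and 0 of 17 (interval 0 to 18.4%), and both backgrounds lie inside these intervals.

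Which GR regions coincided with RelA differed by locus. At Klf9 both RelA regions lay on GR regions: chr19:23131130-23131746 on the strongest one, and chr19:23209344-23209943, with a tag density of 20.7, on the weaker one. At Tsc22d3 RelA lay on the 3 strongest GR regions. It had 11.4 at the first, 12.5 at chrX:137047925-137048240 and 15.9 at chrX:137040279-137040767.

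Fkbp5 and Per1 had their strongest GR regions outside RelA. At Fkbp5, RelA met GR only in the distant group, at chr17:28650579-28651137 with 24.7 and at chr17:28659776-28660499 with 23.6. A further RelA region, chr17:28647350-28647973 with 19.03, lay 3.20 kb from the centre of the nearest GR region with LPS and Dex. The GR region of rank 2 met no RelA region in any library. At Per1 the sole RelA region, chr11:68938031-68938935 with 13.5, lay 25.8 kb from the nearest GR region with LPS and Dex, and neither GR region met RelA.

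None of the 9 RelA regions was called at 8 h, an interval of 0 to 29.9%, against 31.2% of the whole 3 h list. That background depends on the score. With the 3 h list cut into 5 equal parts by score, it was 6.98%, 11.5%, 22.6%, 37.9% and 76.9%, lowest to highest. The window regions fell as 1, 2, 3, 3 and 0 into those parts. Nor was any of the 9 called with Dex before LPS (0 of 9 at 0, 3 and 8 h, against 0.957%, 0.598% and 0.359% of the 3 h list) or with late Dex, where the background was 4.44%. The share at 0 h without Dex was 0 of 9 against 1.06%. At 0 h and in the libraries with Dex so few regions of the 3 h list were called again that the zeros there do not set the windows apart.

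**Figure D4:**
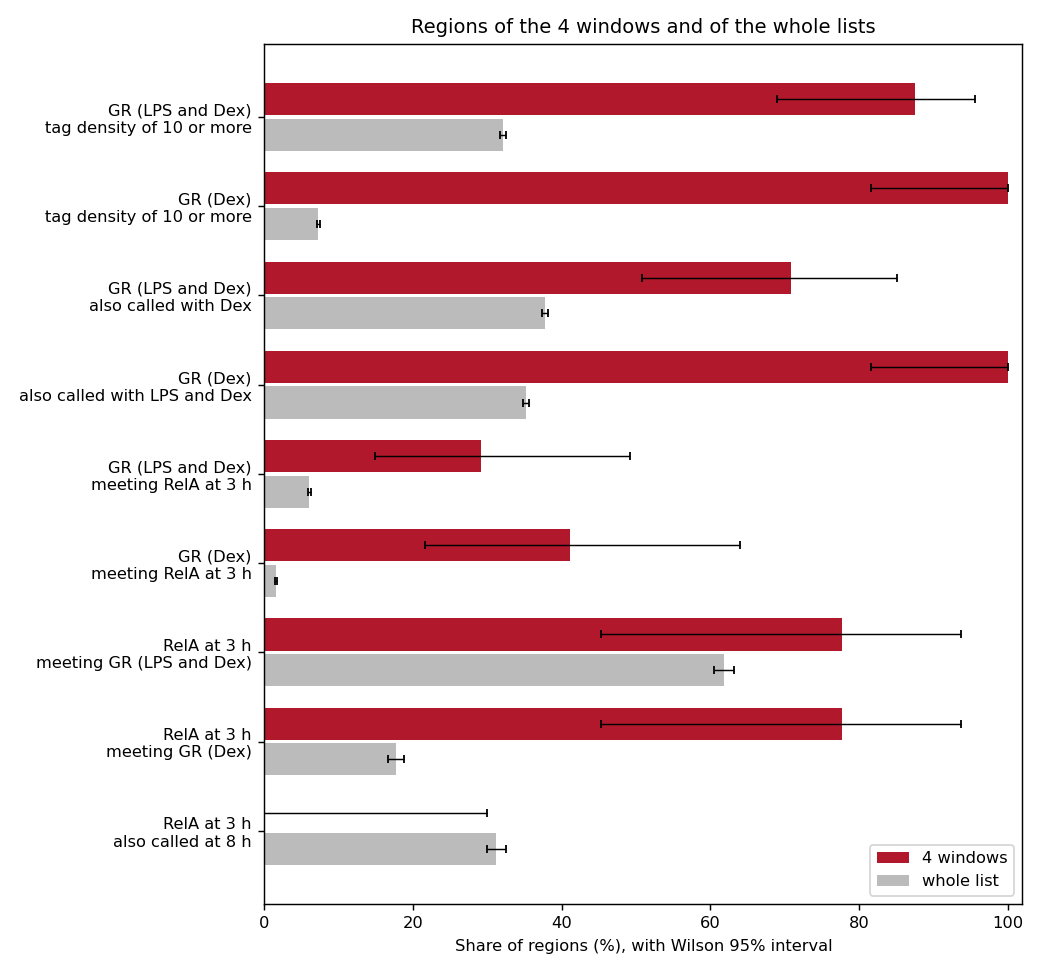
Share of regions (percent, horizontal axis) with each property in the 4 windows (upper bar of each pair) and in the whole list (lower bar), with Wilson 95% intervals as error bars. All 17 Dex regions of the windows had a tag density of at least 10, against 7.28% of the Dex list, and 7 of the 9 RelA regions met GR of Dex, against 17.7% of the RelA list.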

How the data were processed

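The authors deposited 1 list of enriched regions per library. The submitters' processing notes name CASAVA and the build mm9; the sources used here name neither a region caller nor its threshold. Per the file headers, each deposited region has a highest and a mean tag density, which are signal values, a z-score, here called the score, and a p-value. The p-value was not used. Depth per library is unknown, and 1 library per condition limits every comparison to a description.

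Regions sharing at least 1 bp with a window or another region were counted as meeting it. Shares carry Wilson 95% intervals. Regions named were, in each window and GR list, up to 8 in the top 10% by highest tag density, plus every RelA region; GR regions named beyond these were chosen after their values were seen. Tiles of each window's size, laid end to end along every chromosome, gave the background of region counts. The overlap step was tested on simulated data. Python 3.11.15, pandas 2.3.3, numpy 2.4.6, statsmodels 0.14.6 and matplotlib 3.10.9 were used. Windows, motifs and alternatives were chosen with earlier results of these data known, and the ranks among shared pairs, parts of the RelA list by score, tiles and the E-box were added after seeing the values.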

Additional observations from a re-analysis of the deposited data

How the results depend on the processing

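For 25 results, 100 alternative values were computed, and 88 were labelled close to the value reported. Close meant within 1.5 times for a count, and within the Wilson interval of the main value for a share or a rank. Ranks were taken as a percent of their list, but ranks among the 3398 shared pairs were divided by the whole list. All of these were labelled close, and those labels carry no weight. As a percent of the pairs, the strongest Per1 region with Dex stood at 1.91%, against 0.118% of its list. The upper 50% of the lists by score left 11 GR regions with Dex in the windows in place of 17, and raised the share of regions with LPS and Dex also called with Dex to 88.9%. Ranking by score in place of tag density put the strongest region with LPS and Dex at 9 for Fkbp5, 97 for Klf9 and 332 for Per1, and that with Dex at 40 for Fkbp5, 129 for Klf9 and 162 for Per1. Ranking by mean tag density put the strongest region with LPS and Dex at 232 for Per1, 133 for Tsc22d3 and 21 for Klf9. Leaving out regions that meet input moved the strongest Tsc22d3 region with Dex to rank 257. The cause of these shifts was not tested, apart from the fewer regions that a filter leaves. Narrowing the windows by 10% at each end left 22 GR regions with LPS and Dex, 15 with Dex and 8 RelA regions at 3 h, and took the strongest Klf9 region out; widening them gave 26, 17 and 11. A score of at least 11 left 7 RelA regions at 3 h. The count stayed 0 in each of the 6 other RelA lists with the windows widened. The other alternatives run on it can only remove regions, so they could not change a count of 0, yet they are among the 88. No paired analysis was possible because each condition had 1 library. Regions are listed only above the authors' threshold, so a region not called may have been bound below it.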

Other observations

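RelA at 8 h of LPS was called near the Fkbp5 and Per1 windows although not in them. Beyond the end of the Fkbp5 window the nearest such region, chr17:28831611-28832035, lay 132 kb away with a highest tag density of 23.3. A GR region with Dex lay on it, chr17:28831729-28832002, with 10.6. Beyond the end of the Per1 window the nearest, chr11:69223793-69224707, lay 274 kb away with 22.4, and GR with Dex was called there at chr11:69223847-69224391 with 20.2. For Tsc22d3 and Klf9 the nearest RelA regions at 8 h lay 1000.03 kb and 1107 kb from the window.

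Tag density and score ordered the GR regions differently in the Dex list. Of the 5638 Dex regions in the top 10% by tag density, 46.8% lay in the lower 50% of the list by score, as did 6 of the 17 in the windows (35.3%, interval 17.3 to 58.7). With LPS and Dex the share was 0.578% of 5193 regions and 0 of 15 in the windows. An example is the Fkbp5 region chr17:28654998-28655249 with Dex, which ranked 2533 of 55196 by tag density and 54095 by score.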
